A study of Arabidopsis thaliana with 6 samples.

Results

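The regions described here are narrow ChIP-seq peaks of a tetramerization-deficient SEPALLATA3 protein (SEP3tet) that lie inside protein-coding genes of Arabidopsis thaliana and have no counterpart with the wild-type protein (SEP3wt). They were chosen by peak calls and position, as SEP3tet peaks up to 1000 bp wide that share no bp with any SEP3wt peak and whose summit lies within a protein-coding gene on chromosomes 1 to 5. This gave 633 of the 3601 SEP3tet peaks (17.6%). They made up 48.1% of the 1315 narrow SEP3tet peaks with a summit in a gene. Among all 3601 SEP3tet peaks, 1680 (46.7%) shared no bp with a SEP3wt peak. These shares are fixed by the choice of the peaks and are given as a description only. In the text, "SEP3tet-only gene-body peaks" means these 633 regions, and the gene that holds a summit is called its host gene.

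SEP3 is a MADS-domain transcription factor of floral organ identity. It binds DNA as a dimer, and pairs of dimers with AP1, AP3, PI, AG and other MADS-domain proteins can form tetramers that contact a pair of CArG boxes at once. A peak marks where fragments bound by the antibody pile up, and peaks of transcription factors in plants often lie upstream of genes, although introns also hold binding sites, as at AG.

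All samples were inflorescences of long-day plants that lack SEP1, SEP2 and SEP3 function (sep1,2,3) and carry a rescue transgene under the SEP3 promoter, with the genotypes pSEP3:SEP3wt;sep1,2,3 and pSEP3:SEP3tet;sep1,2,3. Of the 6 samples, 2 per line were precipitated with an antibody raised to SEP3 and 1 per line with pre-immune serum as a mock. No plant without a transgene was analysed here, and the sources used here do not say how many independent insertions a line stands for. The deposited values were 1 peak list per line, with 3601 peaks in SEP3tet and 2225 in SEP3wt. They hold no value per replicate, so the spread between plants is unknown for each comparison of the lines. Read depth and mock signal were not analysed here. A missing SEP3wt peak therefore means that none was called in that list, not that SEP3wt was absent, and in this bulk tissue binding in fewer cells cannot be told apart from weaker binding per cell.

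The SEP3tet-only gene-body peaks were small. The authors' fold enrichment (signal at the summit over the background that the peak caller modelled) had a median of 3.12 and ran from 2.19 to 5.63. The −log10 q had a median of 4.14 (1.40 to 16.7) and the width a median of 218 bp (137 to 806 bp). Of the peaks, 45 reached a −log10 q of 10 or more (7.11%, exact 95% interval 5.23 to 9.40, counting error over peaks only) and 74 a fold of 4 or more (11.7%, 9.29 to 14.5). The 682 shared narrow peaks in genes are those that overlap a SEP3wt peak. They had a median fold of 3.70 (1.97 to 11.0) and a median width of 361.5 bp in the same list. Small size was not particular to gene bodies. The 1045 SEP3tet-only peaks with the summit outside genes had a median fold of 3.27 and a median width of 216 bp. For the 222 SEP3wt-only narrow gene-body peaks these were 2.72 and 211 bp in the SEP3wt list. Both measures come from the contrast that chose the peaks, so they were not tested.

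The share of narrow gene-body SEP3tet peaks without a SEP3wt counterpart changed with fold. It was 39.1% (25 of 64) at folds under 2.5, 62.2% (217 of 349) at folds of 2.5 to 3 and 62.7% (205 of 327) at folds of 3 to 3.5. It was 52.8% (112 of 212) at folds of 3.5 to 4, 34.3% (57 of 166) at folds of 4 to 5 and 17.0% (17 of 100) at folds of 5 to 6. Each of the 97 peaks with a fold of 6 or more overlapped a SEP3wt peak. The folds were coarse: the 633 peaks held 110 distinct values, most often 0.0482 apart, and 580 peaks had exactly the fold of another of them. Small differences in fold between 2 of these peaks are therefore close to the step of the scale.

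**Figure D1:**
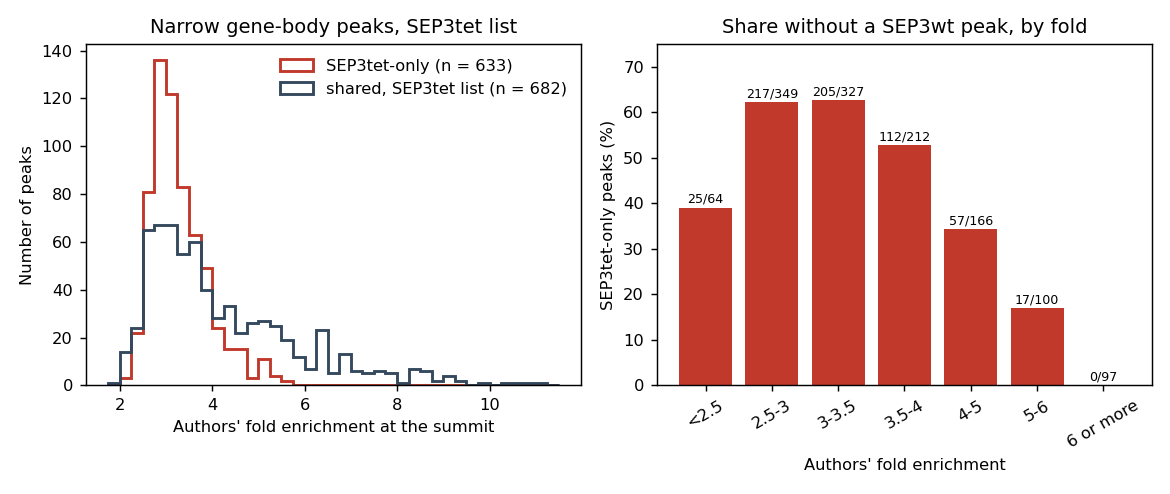
Left, number of narrow gene-body SEP3tet peaks against the authors' fold enrichment, for the 633 SEP3tet-only peaks (red) and the 682 shared peaks (dark). Right, percentage of these peaks that are SEP3tet-only in each range of fold, with counts above the bars: 62.7% at folds of 3 to 3.5 and 0 of 97 at 6 or more.

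The 20 strongest SEP3tet-only gene-body peaks with a named host gene, one that has a symbol in the gene table, ran from a fold of 5.63 to 4.57. The highest lay in HDG1 (AT3G61150), a homeodomain gene of epidermal differentiation (chromosome 3, 22630333 to 22630769; −log10 q 16.7; summit 251 bp from a gene edge). Toward the other end of HDG1 stood a shared peak, with a fold of 7.94 in SEP3tet and 4.30 in SEP3wt, so this gene also had a SEP3wt peak. A further SEP3tet-only peak, with a fold of 2.64, had its summit in the neighbouring gene FUS6, which encodes a COP9 signalosome subunit.

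The second strongest in a named gene lay in TGA10 (AT5G06839), a bZIP transcription factor gene of anther development (chromosome 5, 2123861 to 2124149; fold 5.31). Its summit was 2432 bp from the nearer gene edge, and neither line had another summit in the gene or within 3 kb. RBP47A, an RNA-binding protein gene, had a fold of 5.29 (chromosome 1, 18359221 to 18359627), and another SEP3tet-only peak, with a fold of 5.58, had its summit 120 bp outside the gene. The receptor-like kinase gene RLK (AT5G67280) followed with a fold of 5.24 (chromosome 5, 26843026 to 26843480). PYR1, an abscisic acid receptor gene, had a fold of 5.14 (chromosome 4, 9929334 to 9929687), and the nearest SEP3wt peak was 642 bp away.

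PHT4;3, a phosphate transporter gene, and ICK6, which encodes an inhibitor of cyclin-dependent kinases, had the same fold of 5.10. The ICK6 peak (chromosome 5, 19793040 to 19793845) was the widest of the 633, at 806 bp, and lay 92015 bp from the nearest SEP3wt peak. At PHT4;3 that distance was 126343 bp. Folds of 5.05 to 4.90 were found in DAR7, a DA1-related gene, in CKL2, a casein kinase-like gene, in PES1, a phytyl ester synthase gene, and in the zinc finger gene ZAT11. The remaining genes among the 20, with folds from 4.71 to 4.57, were AMSH2 (a deubiquitinase), SRF3 (a receptor kinase), PUM6 (a Pumilio RNA-binding protein), BLH2 (a BELL homeodomain protein), TCP10, RLP29 (a receptor-like protein), ING1 (a histone-reading protein), TIM23-2 (a mitochondrial import subunit) and FAB1 (fatty acid synthesis).

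Of these 20 genes, 5 also had a SEP3wt summit in that window: HDG1, PYR1, SRF3, BLH2 and FAB1. At FAB1 the nearby shared peak had a fold of 4.61 in SEP3tet and 2.62 in SEP3wt, 196 bp and 182 bp outside the gene. At SRF3 it had 3.75 and 3.20. The folds of each list were computed apart, so setting them side by side measures no change in binding.

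Most SEP3tet-only gene-body peaks had no SEP3wt summit nearby. For 454 of the 633 peaks (71.7%, 68.0 to 75.2) neither the host gene nor the 3 kb on either side held one, and for 339 (53.6%) there was no further SEP3tet summit there either. In the remaining 179 (28.3%) a SEP3wt summit stood elsewhere in the same window. The median fold was 3.12 in these 179 peaks and 3.17 in the 454 others. Of the 45 peaks with the highest −log10 q, 10 or more, 35 had no SEP3wt summit in that window. These counts use the contrast of the rule and carry no test. The share of all protein-coding genes without a SEP3wt summit in such a window was not counted. The 71.7% is therefore not read as a trait of these peaks.

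Distances to the nearest SEP3wt peak ran from 8 bp to 233674 bp, with a median of 12405 bp. A SEP3wt peak lay under 200 bp away from 18 peaks (2.84%) and under 1000 bp away from 81 (12.8%), while 354 (55.9%) had none within 10 kb. The 18 nearest had a median fold of 2.74 and a highest fold of 3.22. Between 1000 and 3000 bp the median was 3.27 (63 peaks), and beyond 30000 bp it was 3.07 (156 peaks). The closest pair lay at AT5G61590, 8 bp apart (fold 2.74), whereas the smallest overlap that counted as shared was 2 bp, at FBS1 (fold 3.31).

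**Figure D2:**
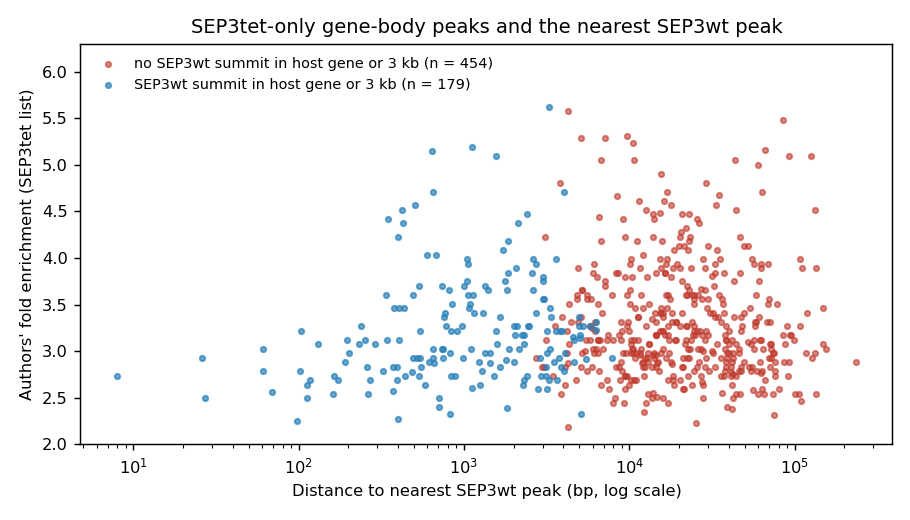
Authors' fold enrichment of each of the 633 SEP3tet-only gene-body peaks against its distance to the nearest SEP3wt peak in bp (log axis). Blue points have a SEP3wt summit in the host gene or within 3 kb (179 peaks) and red points have none (454). The highest folds, above 5, occur from 642 bp to 126343 bp away.

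Within the host gene, a larger share of summits than of gene bases lay near the edges, as it did for shared peaks. Of the 633 summits, 420 (66.4%, 62.5 to 70.0) lay under 500 bp from the nearer edge and 293 (46.3%, 42.3 to 50.3) under 200 bp. Averaged over the 633 peaks, 42.5% of the bases of the host gene lie under 500 bp from an edge and 17.9% under 200 bp. This mean takes 1 share per peak, so short genes weigh as much as long ones. The peak itself crossed the gene edge in 183 cases (28.9%), and 99 summits (15.6%) were at least 1000 bp from both edges. As the gene table gives no strand, start and end of the gene could not be separated. Another protein-coding gene lay within 1 kb of 237 of the 633 summits (37.4%). Examples near an edge were CKL2 (61 bp), TCP10 (54 bp), TIM23-2 (56 bp) and CRF1, a cytokinin response factor gene named after its value was seen (21 bp, fold 3.94).

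The position in the gene was not used to choose the peaks and could be compared with other narrow gene-body peaks. For shared peaks of the SEP3tet list, the average share of host gene bases was 42.2% under 500 bp from an edge and 17.4% under 200 bp. Of these shared summits, 31.1% lay under 200 bp from an edge. In the SEP3wt list, 59.6% of shared summits lay under 500 bp from an edge, beside an average of 42.3% of bases. Of shared SEP3tet peaks, 369 of 682 (54.1%, 50.3 to 57.9) lay under 500 bp from an edge, 12.2 percentage points fewer (Fisher's exact test, two-sided, odds ratio 1.67, adjusted p = 9.70e-06, Benjamini-Hochberg over 3 tests). Of SEP3wt-only peaks in genes, 89 of 222 (40.1%, 33.6 to 46.9) did, 26.3 points fewer than SEP3tet-only peaks (Fisher's exact test, odds ratio 2.95, adjusted p = 4.54e-11). That class was 26.2% of the narrow gene-body SEP3wt peaks, with a median fold of 2.72 in the SEP3wt list. Averaged over its peaks, 48.3% of host gene bases lie under 500 bp from an edge. By fold in the SEP3wt list, 40.6% of 175 SEP3wt-only peaks under 3 lay under 500 bp from an edge, and 41.7% of 36 at 3 to 3.5. Only 8 had a fold of 3.5 to 4 (37.5%) and 3 a fold of 4 or more (0%). The tests count peaks, not plants, and peaks of 1 gene are not independent. The test with SEP3wt-only peaks sets 1 list per line against the other, so its p-value measures no difference between the lines.

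The comparison with shared peaks varied with peak strength. At folds under 3, 63.2% of SEP3tet-only and 39.8% of shared peaks lay under 500 bp from an edge, and at folds of 3 to 3.5 the shares were 70.2% and 45.1%. At folds of 3.5 to 4 they were 63.4% and 70.0%, and at 4 or more 70.3% and 60.9%. With the −log10 q limited to 5 or more, the shares were 64.9% and 62.5% and the call was lost (Fisher's exact test, adjusted p = 0.565). Over these ranges the share of SEP3tet-only peaks near an edge ran from 63.2% to 70.3% and that of shared peaks from 39.8% to 70.0%. Narrower ranges spread them further. The SEP3tet-only share was 73.7% at folds of 4 to 5 and 58.8% at folds of 5 to 6 (17 peaks). The shared share was 33.3% at folds under 2.5. The part of peak strength in the difference was not tested.

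**Figure D3:**
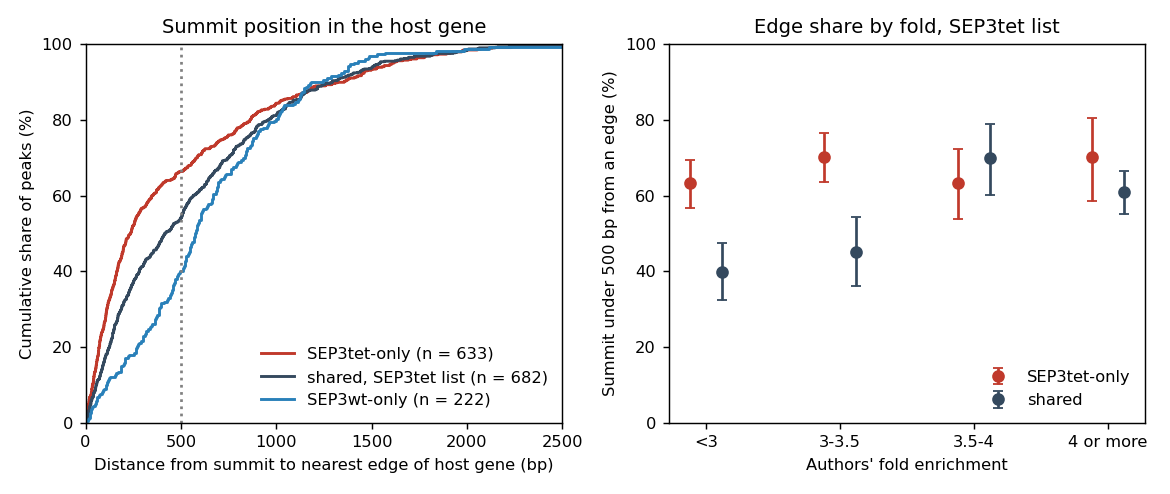
Left, cumulative percentage of summits against the distance to the nearest edge of the host gene in bp, for SEP3tet-only (red), shared (dark) and SEP3wt-only (blue) narrow gene-body peaks; at 500 bp (dotted line) they reach 66.4%, 54.1% and 40.1%. Right, percentage of SEP3tet-list peaks under 500 bp from an edge by range of fold, with exact 95% intervals: the classes lie apart at folds under 3.5 (63.2% and 39.8% under 3) and their intervals overlap above.

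A further SEP3tet summit in the host gene or within 3 kb accompanied 279 SEP3tet-only gene-body peaks (44.1%, 40.2 to 48.0) and 384 of the 682 shared ones (56.3%, 52.5 to 60.1), a difference of −12.2 points (Fisher's exact test, odds ratio 0.612, adjusted p = 9.99e-06). SEP3tet peaks in the same gene count as each other's further summit, so they are not independent. With 1 peak per host gene, chosen after seeing the data, the shares were 40.6% and 48.0% (Fisher's exact test, adjusted p = 0.0114). The shares over all peaks also varied with fold. Under a fold of 3, 44.6% of SEP3tet-only and 80.1% of shared peaks had such a neighbour, and at folds of 4 or more 48.6% and 40.8%. Among peaks with a −log10 q of 5 or more the shares were 41.6% and 44.0% (Fisher's exact test, adjusted p = 0.565). Among those with 10 or more the direction turned, with 46.7% and 39.7% (Fisher's exact test, adjusted p = 0.411).

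The peaks fell in 603 genes, 2.20% of the 27444 protein-coding genes. A summit lay in 2 overlapping genes in 8 cases. Host genes had a median length of 2779 bp, beside 2078 bp over all protein-coding genes, and longer genes offer more room for a summit. A shared narrow SEP3tet summit stood in 43 of the 603, beside 2.14% of all protein-coding genes, and a SEP3wt-only one in 18, beside 0.685%. Chromosomes held them about as they hold genes, from 13.6% of the peaks on chromosome 4, beside 15.2% of genes, to 25.9% on chromosome 1, beside 26.1%.

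There were 36 genes that held 2 or more of the peaks, 22 of them with a symbol, and 1 held 3. The gene with 3 was AT1G68862, which has no symbol and was singled out after its values were seen, with folds of 4.23, 3.22 and 3.02 and no SEP3wt summit within 3 kb. Summits within a gene were a median of 846 bp apart (267 to 4247 bp, the first 2 of each gene). BLH2, a BELL homeodomain gene of leaf shape, held peaks of fold 4.71 and 3.27. GA2OX8, which encodes a gibberellin-inactivating oxidase, held peaks of fold 4.52 and 2.98, and the nearest SEP3wt peak to either lay 132100 bp away. AN3, a coactivator gene that acts with growth-regulating factors in organ size, held peaks of fold 3.46 and 3.07, and the nearest SEP3wt peak to either lay 148189 bp away.

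Others with a pair were the sugar transporter genes SWEET2 and STP1, the expansin gene EXPA6, the fasciclin-like gene FLA8, the homeodomain gene HAT1, the zinc finger gene GATA1, the BTB-domain gene BT2, WRKY7 (a WRKY factor), the B3-domain gene ABS2, RLP29, the wall acetylation gene RWA4, the cellulase-family gene GH9C2, the jasmonate-responsive lectin gene JR1, the calmodulin-binding family gene iqd21, NAKR3, PGSIP7 and PG2. The folds in the 22 named genes ran from 2.27 to 4.71, with a median of 2.98. AOC3, a jasmonate synthesis gene, held peaks of fold 2.74 and 2.69. It has close copies next to it, AOC2 among them, and how reads were divided between copies is not known here. A SEP3wt summit stood in or near 8 of the 22, counted over the same window. Over all 633 peaks the share was 28.3%, counted by peak and not by gene.

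Genes of flower development were among the hosts. Of the 174 genes in 9 lists of floral regulators, hormone pathways and comparison genes, 14 (8.05%) held a SEP3tet-only gene-body peak, beside 2.20% of all protein-coding genes and 3.05% of those with a symbol. A shared narrow SEP3tet summit was held by 15 of the 174, beside 2.14% of all genes. The listed genes had a median length of 2853 bp, beside 2078 bp over all genes, and the part of length in their count was not tested. The lists were drawn up with earlier results of these data known and no list was tested. The 15 peaks in listed genes had a median fold of 3.22 (2.59 to 4.66), beside 3.12 over all 633. Of these 15 summits 5 were under 500 bp from an edge, beside 66.4% over all 633. A SEP3wt summit lay in that 3 kb window for 7 of the 14 genes. Over all 633 peaks the share was 28.3%, counted by peak and not by gene.

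Of 14 floral organ identity genes, 3 held a shared narrow gene-body SEP3tet summit. FUL, SHP1 and SHP2, 3 of the 14, held a SEP3tet-only gene-body peak, beside 2.20% of all protein-coding genes. FUL (AT5G60910, listed as AGL8), which acts in meristem identity and fruit growth, held 2, with folds of 3.94 (chromosome 5, 24505371 to 24505647) and 3.22 (24505017 to 24505184). Both lines also had a strong peak 2.3 kb outside FUL, with a fold of 9.19 in SEP3tet and 6.53 in SEP3wt. SHP1 (AT3G58780), a valve margin gene, held a peak of fold 4.37 with its summit 1923 bp inside the gene (chromosome 3, 21740476 to 21740697). The shared SHP1 peak in the gene had a fold of 9.38 in SEP3tet and 4.03 in SEP3wt. SHP2 (AT2G42830), its close relative, held a weaker peak of fold 3.07, 1451 bp inside the gene (chromosome 2, 17822403 to 17822616). The shared SHP2 peak had folds of 9.77 and 7.56 and its summit 257 bp outside the gene in SEP3tet. In all 3 genes the SEP3tet-only peak was thus a lesser one beside a stronger peak that both lists hold.

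The organ growth, boundary and polarity list held 4 of 24 genes, TCP10, TCP24, BOP2 and PTL, beside 2.20% of all genes, and 0 of 24 held a shared narrow gene-body SEP3tet summit, beside 2.14%. No SEP3wt summit lay in any of the 4 or within 3 kb of them, as for 71.7% of all 633 peaks. TCP10 and TCP24 encode CIN-type TCP factors that restrain growth of leaves and petals. TCP10 had a fold of 4.66 (chromosome 2, 13222435 to 13222794; summit 54 bp from an edge) and TCP24 one of 3.89 (chromosome 1, 10630444 to 10630668; 87 bp). BOP2, a gene of organ boundaries and abscission, had a fold of 3.70 inside the gene (chromosome 2, 17239044 to 17239362) and SEP3tet-only peaks of 3.31 and 4.13 outside it. PTL, a trihelix gene of sepal boundaries, had a fold of 2.59 and a −log10 q of 2.23.

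Of 18 flowering regulators, 2 held a shared narrow gene-body SEP3tet summit. LFY and SPL5, 2 of the 18, held a SEP3tet-only gene-body peak, beside 2.20% of all protein-coding genes. LFY (AT5G61850), which specifies floral meristems, had a fold of 3.36, 861 bp inside the gene (chromosome 5, 24845917 to 24846269), and no other summit of either line within 3 kb. The nearest SEP3wt peak was 61239 bp away. The SPL5 summit (fold 3.02) also lay in the overlapping gene AT3G15260, so it cannot be assigned to either, and shared peaks with SEP3tet folds of 4.81 and 8.04 stood beside it.

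The hormone list held 4 of 34 genes, beside 2.20% of all protein-coding genes. They were EIN2 (ethylene signalling), AOS (jasmonate synthesis), AFB2 (an auxin receptor) and CKX5 (cytokinin breakdown), with folds of 3.23, 3.02, 2.88 and 2.74. For the first 3 a shared peak stood outside the gene, with SEP3tet folds of 5.24, 4.37 and 8.71 in that order. A shared narrow gene-body SEP3tet summit was held by 4 of the 34. Of 11 stamen and pollen genes TPD1 held a SEP3tet-only gene-body peak (fold 2.69), and 1 of the 11 held a shared summit. The remaining lists had 26 other MADS-box genes, 21 floral meristem and carpel genes, 14 chromatin regulators and 12 housekeeping and photosynthesis genes. In these lists 0 genes held a SEP3tet-only gene-body peak, beside 2.20% of all protein-coding genes. At that share few hosts would fall in lists of this size, so the 0 counts are not read as a contrast. A shared narrow gene-body SEP3tet summit stood in 3, 0, 0 and 2 of these in the same order.

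**Figure D4:**
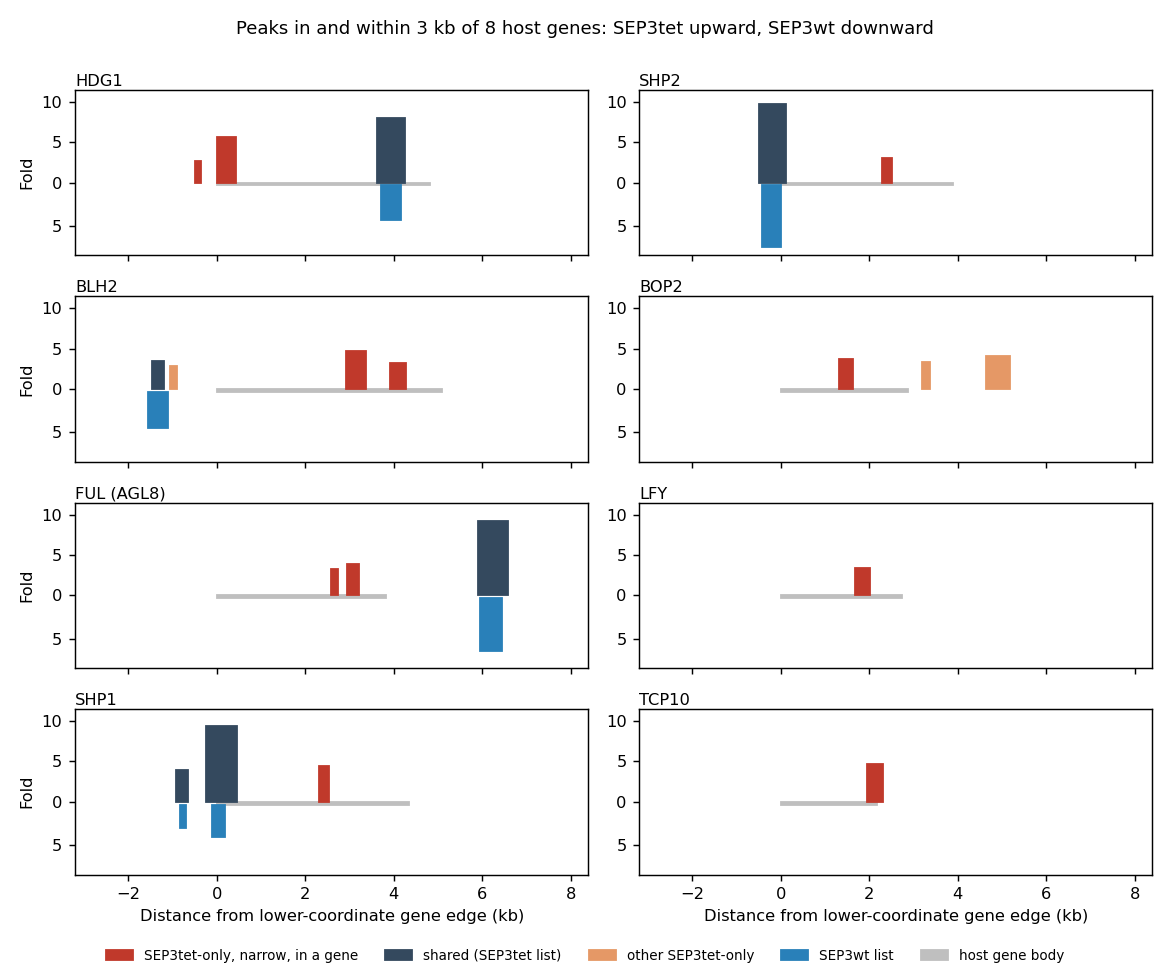
Peaks in 8 host genes and the 3 kb on either side, with position in kb from the gene edge of lower coordinate (grey bar, gene body; strand not shown) and the authors' fold as bar height, SEP3tet upward and SEP3wt downward on scales of their own. FUL, SHP1, SHP2, HDG1 and BLH2 hold SEP3tet-only peaks (red) beside shared peaks (dark, blue below), such as 9.77 and 7.56 at SHP2, while BOP2, LFY and TCP10 show no SEP3wt peak.

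By words in the gene names, the hosts covered many kinds of protein. Genes named as transcription factors held a peak in 28 of 622 cases (4.50%, 3.01 to 6.44). Highest among those that the words caught were TGA10 (fold 5.31), ZAT11 (4.90) and BME3, a GATA factor gene of seed germination (4.18). The words missed HDG1 (5.63), BLH2 (4.71) and TCP10 (4.66), so the class does not hold all genes of such factors. Cell wall genes did so in 11 of 208 cases (5.29%, 2.67 to 9.27), led by XTH9, a xyloglucan-modifying enzyme gene (4.18), EXPA6 (3.65) and CSLG3, a cellulose synthase-like gene (3.60). For cytochrome P450 genes the count was 10 of 232 (4.31%, 2.09 to 7.78), with CYP707A1, which breaks down abscisic acid (4.08), LUT1, which acts in lutein synthesis (3.70), and CYP78A9, a regulator of fruit and seed size (3.70).

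Transporter genes held a peak in 20 of 483 cases (4.14%, 2.55 to 6.32), among them PHT4;3 (5.10), the amino acid transporter gene AAP1 (4.47) and the ureide transporter gene UPS2 (3.94). Kinase-named genes did so in 17 of 583 (2.92%, 1.71 to 4.63), with RLK, CKL2 and ICK6, the last named for the kinases it inhibits. Ribosomal genes held 0 of 70 (exact upper bound 5.13%), photosynthesis genes 2 of 79, ubiquitin and F-box genes 5 of 200 and chromatin genes 4 of 140. Of all genes with a symbol 3.05% held one, a share that lies within the interval of each of these classes. The 2.20% over all protein-coding genes lies below the intervals of transcription factor, cell wall and transporter genes. A shared narrow SEP3tet summit stood in 35 transcription factor, 14 cell wall, 8 cytochrome P450, 10 transporter and 15 kinase genes, beside 2.14% of all genes. Classes of under 50 genes held 1 in all. Many genes have no descriptive name and fall in no class.

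**Figure D5:**
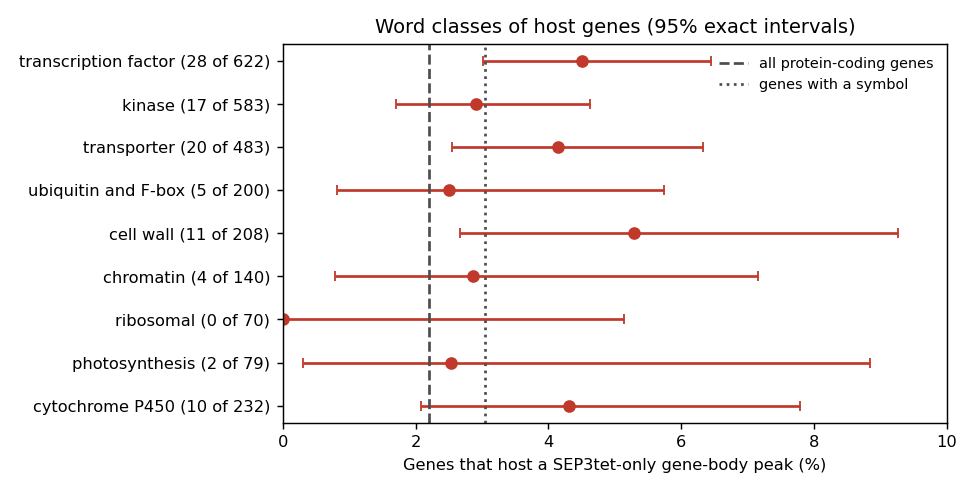
Percentage of genes of each word class that host a SEP3tet-only gene-body peak, with exact 95% intervals over genes. The dashed line marks all protein-coding genes (2.20%) and the dotted line those with a symbol (3.05%); transcription factor genes stand at 4.50% and ribosomal genes at 0 of 70.

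The width limit of the choice set few peaks apart, and the gene edge many. Just inside the width limit came ICK6 (806 bp), XTH9 (721 bp) and AT5G09460 (624 bp), and the SEP3tet-only gene-body peaks left out as too wide were 2, at AT1G25275 (1113 bp, fold 2.93) and SIP2 (4428 bp, fold 4.75). The lowest −log10 q, 1.40, was shared by peaks in GSTF9, HAT1 and UBC10. Summits fell under 25 bp inside a gene edge in 43 peaks and under 25 bp outside a gene in 42 narrow SEP3tet-only peaks.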

How the data were processed

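The submitters' processing notes name MACS2 2.2.7.1, Bowtie2 2.2.5, deepTools and Trimmomatic 0.36, with the TAIR10 build. The sources used here give neither the way replicates were combined nor the control used for calling. The deposited lists give, per peak, a fold (ratio) enrichment, a −log10 p and a −log10 q of the authors' peak caller, a display score (in every deposited row 10 times the −log10 q, cut to an integer) and positions. Folds were used to describe or filter within 1 list. The −log10 p (2 columns, 1 per list) and the score were not used.

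Genes came from a RefSeq table of TAIR10.1 (27444 protein-coding genes, 10374 with a symbol, no strand or exons), used for names and for the position of summits relative to genes; printed positions belong to peaks, on TAIR10 and 1-based. No genome sequence was used here, so no sequence is printed and the planned CArG box count was not made. Where 2 genes held a summit, the edge distance is that of the gene in which it lay deeper. Classes use words in symbols and synonyms, since the table has no descriptions. Shares carry exact (Clopper-Pearson) 95% intervals, and 3 Fisher's exact tests were adjusted by Benjamini-Hochberg at 0.05 (Python 3.11.15, SciPy 1.17.1). The overlap and edge functions were tested on simulated peaks. Depth is unknown.

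The peaks, lists and tests were chosen with earlier results of these data known. Named genes are the 20 highest folds with a symbol, listed hosts, hosts of 2 or more peaks with a symbol, the 3 highest of each word class with over 5 hosts, and peaks at the limits of the rule; others are said to be chosen after their values were seen.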

Additional observations from a re-analysis of the deposited data

How the results depend on the processing

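The number of SEP3tet-only gene-body peaks was 633 as chosen, 231 at a −log10 q of at least 5, 45 at a −log10 q of at least 10, and 227 with equal numbers of peaks (2225) of highest −log10 q taken from both lists. In the same 3 settings the listed host genes, 14 as chosen, numbered 6, 1 and 6; fewer peaks enter each. The number of peaks stayed within 1.5 times with a maximum width of 500 bp (623), no SEP3wt peak within 1000 bp (552), summits at least 100 bp inside the gene (464) and sharing judged by summits within 100 bp (825).

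The edge difference from shared peaks (12.2 points) fell to 2.44 points at a −log10 q of at least 5 and 8.30 points at 10 and was no longer called (Fisher's exact test, adjusted p = 0.565 and 0.411). That from SEP3wt-only peaks (26.3 points) was 71.1 points at a −log10 q of at least 10 without a call (Fisher's exact test, adjusted p = 0.291), where 2 SEP3wt-only peaks were left. The difference in further SEP3tet summits (−12.2 points) was −2.42 points at a −log10 q of at least 5 (Fisher's exact test, adjusted p = 0.565) and turned to 7.0 points at 10 (adjusted p = 0.411). Fewer peaks enter these settings, and the differences themselves also changed in size. The cause was not tested. The calls held with the other settings tried for each (among them folds of 2.5 to 4 only, with 15.3, 22.4 and −21.8 points), including 1 peak per host gene, which was chosen after seeing the data (8.62, 23.1 and −7.39 points).

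With each word class counted once per setting, 31 counts stayed within 1.5 times and 32 moved further, of which 30 were lower. No paired analysis was possible because each line has 1 deposited list and no values per replicate, and no replicate could be left out. The CArG box alternatives were not run.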

Other observations

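Among the 633 SEP3tet-only gene-body peaks, the 2 summits deepest inside a gene belonged to paralogous genes; shared SEP3tet summits reached 3515 bp from an edge and SEP3wt-only ones 2850 bp. TGA9 (AT1G08320) and TGA10 (AT5G06839), bZIP genes known to act together in anther development, held SEP3tet-only summits 2448 bp and 2432 bp from the nearer gene edge, in genes of 6735 and 5986 bp. The next deepest SEP3tet-only summit lay 2394 bp from an edge, and host genes had a median length of 2779 bp. The folds of the TGA9 and TGA10 peaks were 3.22 (chromosome 1, 2626086 to 2626239) and 5.31. No further SEP3tet summit lay in either gene or within 3 kb. TGA9 had 1 SEP3wt summit in that window, with the nearest SEP3wt peak 3625 bp away, and TGA10 had none. TGA9 was chosen after its values were seen, and no test was made.

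Other pairs of related genes were noted after their values were seen, and the other members of their families were not counted. Over all 633 peaks, 46.3% of summits lay under 200 bp from an edge. For 71.7% of the peaks no SEP3wt summit lay in the host gene or within 3 kb. The cytokinin response factor genes CRF1 and CRF4 held peaks of fold 3.94 and 4.13, with summits 21 and 64 bp from a gene edge and no SEP3wt summit within 3 kb. The cellulose synthase genes CESA2 and CESA6 held peaks of fold 3.27 and 3.31, 197 and 58 bp from an edge, also without a SEP3wt summit within 3 kb.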
